A study of Homo sapiens with 19 samples.

Results

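The secondary pluripotency factors described here are 10 genes that human embryonic stem cells (hESCs) express beside the core trio POU5F1 (OCT4), SOX2 and NANOG. They are LIN28A (NM_024674), LIN28B (NM_001004317), L1TD1 (NM_019079), ZFP42 (NM_174900), SALL4 (NM_020436), DPPA2 (NM_138815), DPPA4 (NM_018189), UTF1 (NM_003577), PRDM14 (NM_024504) and FOXD3 (NM_012183). Each was found through the RefSeq accession that the array file gives for its probe, and the 10 genes are 10 of the 20503 with a named probe. Each gene has 1 probe, and all 10 were among the 16694 genes tested because their probes were well above background, by the scanner software's own flag, on 19 of 19 arrays.

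The cells were KhES-3, an established hESC line, placed in a low-attachment dish in serum-free medium for induction of brown adipocytes (BAs), the heat-producing fat cells. Every culture received the same cytokine cocktail of IGF-II, BMP4, VEGFA, KITLG, FLT3LG and IL-6, and cells were collected at 19 times, every 1 to 2 h from 3 to 16 h, every 4 h from 20 to 36 h and every 6 h from 42 to 72 h. Each time point is 1 one-colour Agilent array (Cy3), so there are no replicates, and no array of uninduced cells is among them, so every change is between induced cells. The labels describe hESCs grown on irradiated mouse embryonic fibroblasts, whereas the study's methods describe a feeder-free system. The arrays lay on 3 slides, the first with the 6 arrays from 3 to 12 h, the second with the 8 from 14 to 42 h and the third with the 5 from 48 to 72 h, and the third was scanned on a later day, so time and slide overlap in part. The 75th percentile of the signal ranged from 655 to 1003 per array, and 49.5% to 64.7% of probes were well above background. The arrays at 66 and 72 h stood apart: their 75th percentile was 655 on both, and relative to the spike-in RNA it was -0.80 and -0.82 on the log2 scale, against -0.44 to 0.40 on the other arrays.

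Pluripotent cells keep the capacity to form every tissue of the embryo through a network in which OCT4, SOX2 and NANOG hold one another active, and the genes described here act around that trio. LIN28A and LIN28B are RNA-binding proteins that block the maturation of the let-7 microRNAs, L1TD1 is an RNA-binding protein that arose from a LINE-1 retrotransposon, and ZFP42 (REX1), SALL4, PRDM14 and FOXD3 are DNA-binding transcription regulators. DPPA2 and DPPA4 are chromatin proteins that work as a heterodimer and are encoded side by side, and UTF1 is a chromatin-associated factor of undifferentiated cells.

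Start regions of the members are shown for the genes on which the results turn. DPPA2 and DPPA4 are shown because these neighbouring paralogs had different courses, UTF1 because its course was nearest to that of DPPA2 among the members, and ZFP42 and LIN28B because they had the largest falls. The sequences are from RefSeq (GRCh38.p14), read 5′ to 3′ on the strand of the gene from 250 bases before to 50 bases after a start, and capitals mark the GC box GGGCGG, or in LIN28B also the SOX motif CATTGT, on either strand.

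DPPA2 (chr3:109316468-109316767, minus strand): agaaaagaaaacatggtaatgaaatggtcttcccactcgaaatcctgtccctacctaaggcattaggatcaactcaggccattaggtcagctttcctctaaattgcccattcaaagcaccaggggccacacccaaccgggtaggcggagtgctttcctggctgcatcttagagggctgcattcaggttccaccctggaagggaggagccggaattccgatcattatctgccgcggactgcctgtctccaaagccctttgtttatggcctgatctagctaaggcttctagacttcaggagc
DPPA4 (chr3:109337497-109337796, minus strand): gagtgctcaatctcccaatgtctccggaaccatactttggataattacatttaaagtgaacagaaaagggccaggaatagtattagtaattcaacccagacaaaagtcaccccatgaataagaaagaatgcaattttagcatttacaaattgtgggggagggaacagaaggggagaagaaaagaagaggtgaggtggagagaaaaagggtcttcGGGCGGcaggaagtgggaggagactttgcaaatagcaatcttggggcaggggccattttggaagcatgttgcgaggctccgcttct
UTF1 (chr10:133229967-133230266, plus strand): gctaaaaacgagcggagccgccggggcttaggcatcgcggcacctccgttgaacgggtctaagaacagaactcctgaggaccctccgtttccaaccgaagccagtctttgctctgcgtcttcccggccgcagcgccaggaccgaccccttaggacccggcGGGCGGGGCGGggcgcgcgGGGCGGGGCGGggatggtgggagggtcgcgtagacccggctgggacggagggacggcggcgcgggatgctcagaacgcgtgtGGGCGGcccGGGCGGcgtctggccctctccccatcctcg
ZFP42 (chr4:187995521-187995820, plus strand): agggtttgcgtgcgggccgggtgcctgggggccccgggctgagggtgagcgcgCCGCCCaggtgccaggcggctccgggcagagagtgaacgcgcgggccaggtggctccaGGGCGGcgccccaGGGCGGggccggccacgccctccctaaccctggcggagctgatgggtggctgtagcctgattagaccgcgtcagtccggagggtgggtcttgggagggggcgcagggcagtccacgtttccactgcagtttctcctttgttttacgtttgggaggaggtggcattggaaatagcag
LIN28B (chr6:104940715-104941014, plus strand): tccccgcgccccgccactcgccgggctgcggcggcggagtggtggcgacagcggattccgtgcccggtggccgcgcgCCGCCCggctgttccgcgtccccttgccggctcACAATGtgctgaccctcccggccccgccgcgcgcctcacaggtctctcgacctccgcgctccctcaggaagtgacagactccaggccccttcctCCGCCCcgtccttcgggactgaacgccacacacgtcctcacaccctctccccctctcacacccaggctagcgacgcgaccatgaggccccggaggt

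Windows were held for 7 of the 10 genes, 8 windows in all, of which LIN28B had 2. On both strands, the octamer ATGCAAAT, which OCT4 can bind, was in none of the 8 windows, and 1.77% of all 35116 windows hold it. The SOX motif CATTGT was in 1 of the 8, the LIN28B window above, and 10.8% of all windows hold it. The TATA box TATAAA was in none of the 8 and in 11.5% of all windows. The GC box was in 6 of the 8 and in 45.0% of all windows, with 6 matches in UTF1, 3 in ZFP42, 2 in the LIN28B window above, 1 each in L1TD1, FOXD3 and DPPA4, and none in DPPA2. The other LIN28B window (chr6:104956857-104957156) held no match to any of these motifs. Which of the 2 starts the measured transcript uses was not examined. The DPPA2 and DPPA4 windows had 7 and 5 CpG dinucleotides and those of UTF1 and ZFP42 39 and 24, against a median of 14 over all windows. A match of letters does not show a binding site, and its absence speaks only of these windows.

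Values below are signals, that is, the software's processed intensity scaled so that every array has a 75th percentile of 871. Differences are given on the log2 scale, a slope is a log2 change per hour over all 19 arrays (limma, Benjamini-Hochberg adjusted over 32113 probes, with its standard error), and early and late stand for the means at 3, 4 and 6 h and at 60, 66 and 72 h. With 1 array per time point, adjusted p-values measure the scatter of single arrays around a trend. Signals of different probes are not comparable as levels.

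The 10 factors did not move together. By the slope, 5 fell (LIN28B, ZFP42, L1TD1, PRDM14 and LIN28A), 2 rose (FOXD3 and DPPA2), and DPPA4, SALL4 and UTF1 did not pass an adjusted p of 0.05. Of all genes tested, 29.8% fell and 24.6% rose, that is 4979 and 4101 genes, which is the background for the counts among the members. A cubic curve in hours, which also catches a rise followed by a fall, was called for 9 of 10 members and for 79.6% of all genes, the exception being DPPA4 (adjusted p = 0.0511). In bulk RNA, fewer cells expressing a gene and less RNA per cell cannot be told apart. The rise of DPPA2 was not called with arrays scaled on their median (slope 0.00160, limma adjusted p = 0.683). The median slope was -0.00243 log2 per hour over the 10 members and -0.000198 over all genes tested.

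**Figure D1:**
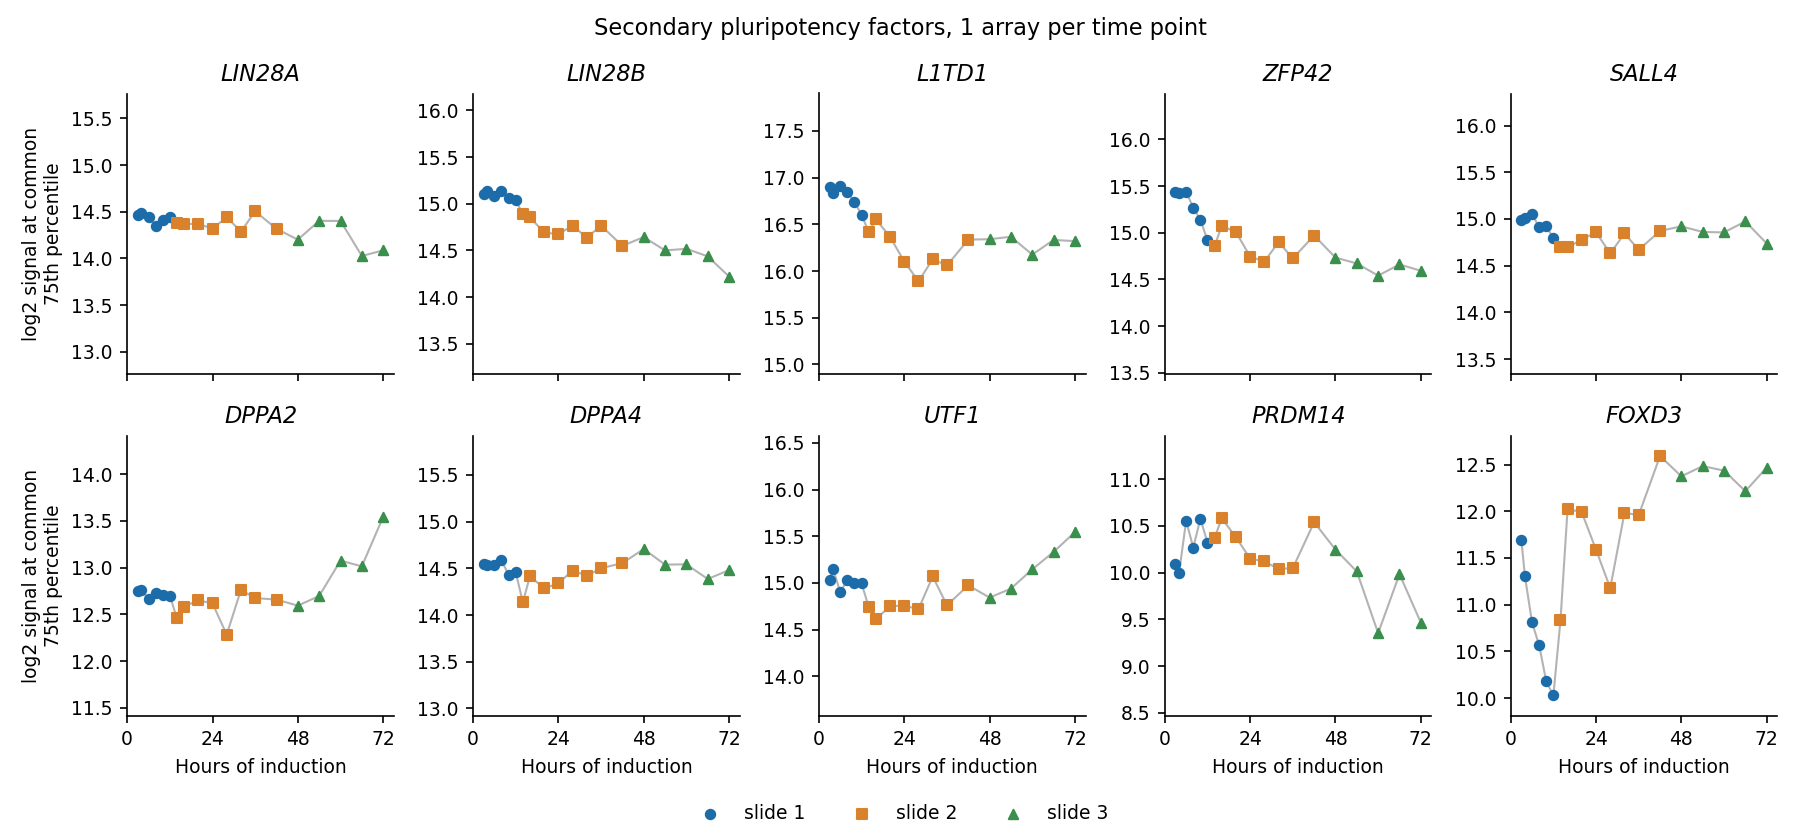
Log2 signal (scaled to a common 75th percentile) of each factor against hours of induction, 1 point per array, with colour and shape for the slide; every panel spans 3 log2 units. The falls of LIN28B, ZFP42 and L1TD1, the upturn of DPPA2 and UTF1 after 54 h and the dip of FOXD3 to its lowest signal at 12 h are visible.

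LIN28B fell over the course, with the smallest adjusted p of the members. Its signal was 35228, 36111, 34612, 35934, 34174 and 33624 from 3 to 12 h, then 30371, 29636, 26483, 26146, 27875, 25494, 27856 and 23983 from 14 to 42 h, and 25599, 23181, 23460, 22186 and 19100 from 48 to 72 h. Each array of the first slide was above each array of the later slides, and the lowest signal was that of the last array. The mean went from 35312 early to 21502 late, a log2 change of -0.72, with a slope of -0.0114 log2 per hour (SE 0.00125, limma adjusted p = 5.42e-07). This was the member whose fall also held with the slide as a block (slope -0.0107, limma adjusted p = 0.0231).

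LIN28A, the paralog, changed less. Its signal was lowest at 66 h (16699), had a median of 21285 and was highest at 36 h (23256), so the highest array lay in the middle of the course. The slope was -0.00392 log2 per hour (SE 0.00127, limma adjusted p = 0.0142), and the mean went from 22593 to 18461, a log2 change of -0.29. The call rested on the last arrays: leaving out 66 h or 72 h raised the adjusted p above 0.05, up to 0.0639, and over 3 to 54 h the slope was -0.00229 (limma adjusted p = 0.239). The call was also lost with the slide as a block (limma adjusted p = 0.572) and with normexp and quantile normalization (slope -6.3e-05, limma adjusted p = 0.976).

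The log2 difference between LIN28B and LIN28A on the same array takes out any scaling of the array. It averaged 0.64 early and 0.22 late, was highest at 8 h (0.79) and lowest at 54 h (0.10), and on 14 of the 16 arrays after 6 h it was below all 3 early values. The slope of the difference was -0.00750 log2 per hour (two-sided permutation test over the 19 arrays, 100000 resamples, adjusted p = 0.00012 over 12 such differences). It was negative within each slide (-0.00188, -0.00887 and -0.00505), while permutation within slides gave an adjusted p of 0.162. Only the change of this difference is interpretable, since its size also holds the brightness of both probes.

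The LIN28 proteins act on let-7, whose members share 1 seed. One sequence is shown to define that family, from RefSeq (GRCh38.p14, chr9:94175962-94175983, plus strand), with the seed, bases 2 to 8, in capitals; the 9 mature sequences of let-7a to let-7i and miR-98 held in the table have this seed. Mature microRNAs were not measured on these arrays.

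hsa-let-7a-5p: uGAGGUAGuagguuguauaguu

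Among 20 known let-7 target messages, a list that includes LIN28A and LIN28B, 11 fell and 1 rose, with a median slope of -0.00554 against -0.000198 over all genes. The largest falls were those of CDK6, a cell cycle kinase (slope -0.0255, highest at 8 h with 5503 and lowest at 72 h with 1430), and CDC25A, a cell cycle phosphatase (slope -0.0207, from 5837 at 3 h to 1938 at 72 h). PLAGL1, a zinc finger factor, was the one that rose (slope 0.0121), at signals of 22.8 to 63.6. With the slide as a block 3 of the 20 fell, namely LIN28B, CDC25A and IGF2BP1, an mRNA-binding protein (slope -0.0169, limma adjusted p = 0.0117). Of 10 genes that make or act on let-7 with LIN28, 5 rose and 3 fell. The background for both lists is 24.6% of all genes rising and 29.8% falling, and 4.12% and 5.97% with the slide as a block. The largest rises were those of MSI1, an RNA-binding partner of LIN28 (slope 0.00947), and DIS3L2, which degrades tailed precursor let-7 (slope 0.00760), and the largest falls those of DGCR8, part of the Microprocessor (slope -0.0182), and DICER1 (slope -0.00717). With the array median as the scaling, 4 of these 10 fell and the rises were not called. The share of all genes called under that scaling is not given, so these counts have no background. With the slide as a block AGO2, an Argonaute protein, rose (slope 0.0161, limma adjusted p = 0.0191), and the calls of the 4 genes just named were lost (adjusted p from 0.294 to 0.882).

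**Figure D2:**
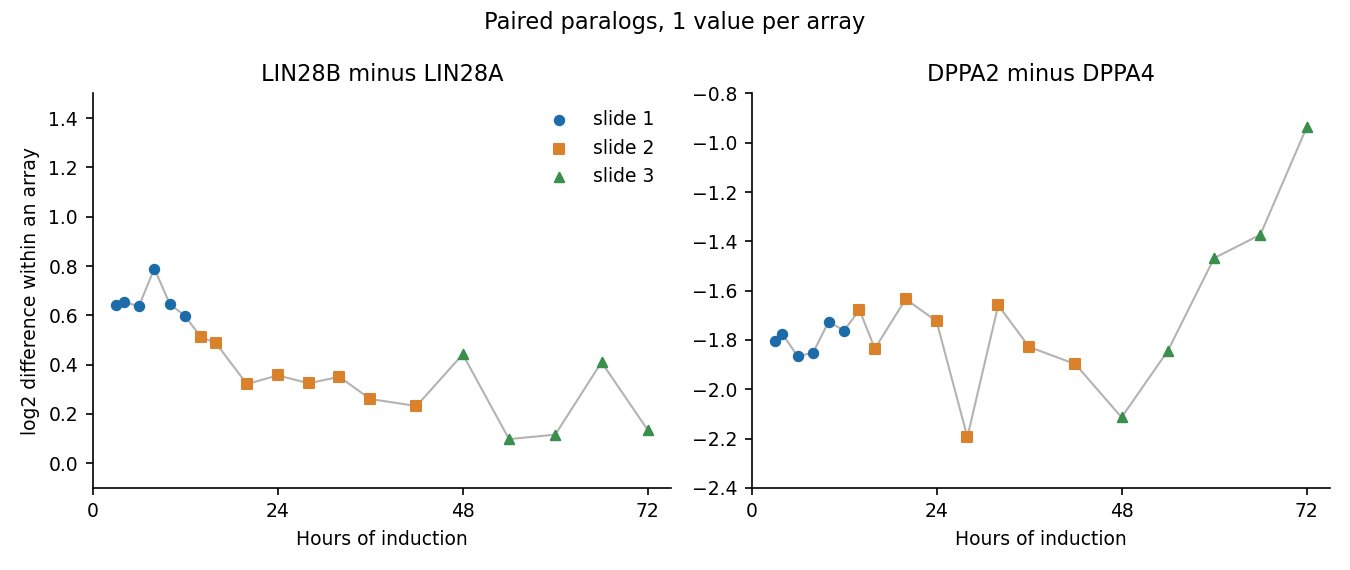
Log2 difference of LIN28B minus LIN28A (left) and DPPA2 minus DPPA4 (right) on each of the 19 arrays against hours of induction, coloured by slide. LIN28B minus LIN28A went from a mean of 0.64 early to 0.22 late. DPPA2 minus DPPA4 had an early mean of -1.82, lay between -2.19 (28 h) and -1.63 (20 h) up to 54 h and reached -0.94 at 72 h.

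L1TD1 fell over the first 28 h and then regained part of its signal. Its signal was 122218, 116897 and 123281 at 3, 4 and 6 h, reached its lowest at 28 h (60738) and was between 74054 and 84528 on the 5 arrays from 48 to 72 h. Every array after 8 h lay below the 3 early ones, and the mean went from 120770 early to 79391 late, a log2 change of -0.61. The slope was -0.00837 log2 per hour (SE 0.00262, limma adjusted p = 0.0114), and the cubic test gave an adjusted p of 1.32e-05. No saturated spot was among those of this bright probe. The block slope, with the slide as a term, was -0.00865 (limma adjusted p = 0.264).

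ZFP42, a zinc finger protein used as a marker of undifferentiated cells, had the larger share of its fall in the first 12 h. Its signal was 44288, 44016 and 44485 at 3, 4 and 6 h, then 39405, 36106 and 31029 at 8, 10 and 12 h, all on the first slide, which is a log2 change of -0.51 from 3 to 12 h. Between 14 and 42 h it ranged from 26474 to 34537 and between 48 and 72 h from 23846 to 27261, so all arrays after 6 h were below the 3 early ones. The mean went from 44263 to 24810 (log2 change -0.84), the largest fall among the members, with a slope of -0.0109 (SE 0.00187, limma adjusted p = 8.18e-05). Within the first slide the slope was -0.0565 (limma adjusted p = 0.0571), and with the slide as a block over all arrays it was -0.00697 (limma adjusted p = 0.364).

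SALL4, a zinc finger protein that binds with OCT4 and NANOG, had no slope past the test with the 75th percentile, but fell with the array median (slope -0.00621, limma adjusted p = 0.0295) and with the spike-in RNA (slope -0.00942, limma adjusted p = 0.023). Its late minus early change was -0.16, -0.53 and -0.81 under these scalings. The median change of all genes tested was -0.05, -0.42 and -0.70 in the same order. Their median slope was -0.000198, -0.00546 and -0.00866. These scalings differ by a constant per array, so the called falls of SALL4 include a shift shared by all genes. With the 75th percentile, where the median slope of all genes was -0.000198, a fall of SALL4 was not called. Its signal was lowest at 28 h (25368), had a median of 29655 and was highest at 6 h (34035), a range of 1.34-fold over the whole course. The slope was -0.000953 log2 per hour (SE 0.00148, limma adjusted p = 0.608), and the cubic test was called (adjusted p = 0.0118). The 3 early arrays were at 32445 to 34035 and the arrays from 14 to 28 h at 25368 to 29655, with 32162 again at 66 h.

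PRDM14, which keeps hESCs from moving to other fates, was lowest at 60 h (653), had a median of 1137 and was highest at 16 h (1533). It was spotted 8 to 10 times per array after removal of outlier spots, and the SD among these copies had a median of 0.049 on the log2 scale (0.033 to 0.173), which is technical error within an array. Its signals at 3 and 4 h (1092 and 1020) lay below those at 6 to 12 h (1232 to 1528), and the last 5 arrays were at 1214, 1033, 653, 1012 and 707. The mean went from 1188 to 776 (log2 change -0.61), with a slope of -0.00981 (SE 0.00277, limma adjusted p = 0.00597). Within the first slide the slope was positive (0.0394), and over 3 to 54 h it was -0.00340 (limma adjusted p = 0.416), so the call rests on the arrays after 54 h.

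DPPA2 and DPPA4, neighbours on chromosome 3 whose proteins act together, diverged at the end of the course. DPPA4 ranged from 17995 at 14 h through a median of 22871 to 26747 at 48 h, and its slope was 0.000954 log2 per hour (SE 0.00151, limma adjusted p = 0.614). DPPA2 was between 4982 and 6944 on the 16 arrays from 3 to 54 h, and then 8629, 8268 and 11941 at 60, 66 and 72 h, so the last 3 arrays were above all earlier ones. Its mean went from 6764 to 9480 (log2 change 0.49), with a slope of 0.00686 (SE 0.00231, limma adjusted p = 0.0179) and a cubic adjusted p of 6.3e-05. Without the 72 h array the slope was 0.00346 and was not called (limma adjusted p = 0.174).

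Within the third slide alone DPPA2 rose by 0.95 on the log2 scale from 48 to 72 h, and 97.5% of genes had a lower value for that pair of arrays, while the value of DPPA4 was -0.23. The slope of DPPA2 in that slide was 0.0370 (limma adjusted p = 0.0763). The difference of DPPA2 minus DPPA4 averaged -1.82 early and -1.26 late and had a slope of 0.00590 (two-sided permutation test, adjusted p = 0.0433 over 12 differences). That call was lost on leaving out any 1 of 7 arrays (6, 8, 16, 32, 60, 66 or 72 h), and over 3 to 54 h the slope was -0.00345. By the same permutation test it was also lost with normexp and quantile normalization (slope 0.00460, adjusted p = 0.187) and with log2 hours (adjusted p = 0.255). Permutation within slides gave an adjusted p of 0.427.

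UTF1 had a course like that of DPPA2. Its signal was 30621 to 36240 from 3 to 12 h, 25017 (the lowest, at 16 h) to 34404 from 14 to 42 h, and 29400, 31422, 36256, 41256 and 47792 from 48 to 72 h, each of the last 4 arrays being above the one before it. The last 2 of these are the arrays with the lowest 75th percentile, as for DPPA2. The part of this in the upturn was not tested beyond the scalings and the within-array differences given below. The mean went from 33340 to 41502 (log2 change 0.32), and the slope over all arrays did not pass the test (0.00501, SE 0.00221, limma adjusted p = 0.0632), whereas the cubic test did (adjusted p = 0.000266). The slope passed on leaving out the array at 3, 4 or 48 h, with an adjusted p of 0.0296 at the lowest, and was 0.00260 at the lowest on leaving out 1 array. Blocked by slide, its slope was 0.0156 (SE 0.00411, limma adjusted p = 0.0265), and within the third slide it was 0.0299 (limma adjusted p = 0.0658). After centring each profile on its mean, UTF1 and DPPA2 differed by a root mean square (RMS) of 0.12 on the log2 scale over the 19 arrays, the smallest value of any pair of members, against 0.25 for DPPA2 about its own mean.

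FOXD3, a forkhead regulator that also marks the neural crest, moved most, over a 5.91-fold range. Its signal was 3306, 2530, 1794, 1515, 1158 and 1044 at 3, 4, 6, 8, 10 and 12 h, then 1823, 4173, 4059, 3079, 2315, 4046, 3980 and 6170 from 14 to 42 h, and 5307, 5725, 5536, 4753 and 5665 from 48 to 72 h. It therefore dropped on each of the first 6 arrays, by 1.66 on the log2 scale (3.17-fold) from 3 to 12 h, and 0.186% of 13969 genes well above background on all arrays had a lower value for that pair of arrays. It regained 0.80 from 12 to 14 h, across slides, and a further 1.76 (3.39-fold) from 14 to 42 h within the second slide.

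The slope of FOXD3 was 0.0273 log2 per hour (SE 0.00561, limma adjusted p = 0.000479) and its late minus early change 1.1 (2.15-fold). Within the first slide the slope was -0.181 (SE 0.0176, limma adjusted p = 0.0222), so a single line over the course spans a fall and a rise. Blocked by slide, its slope was 0.0104 (limma adjusted p = 0.713), and the cubic test with the block was still called (adjusted p = 0.0271). From the first array at 3 h to the last at 72 h the log2 difference was 0.78.

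**Figure D3:**
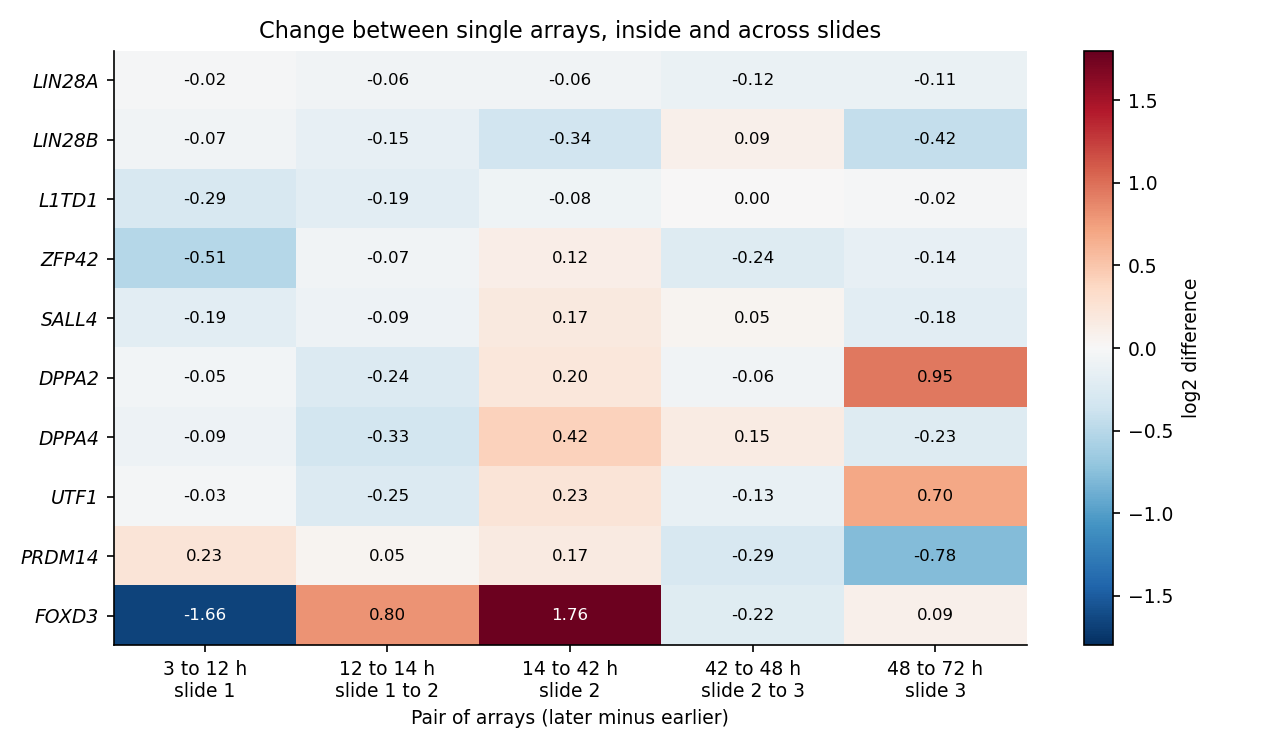
Log2 difference between single arrays (later minus earlier) for each factor, for the first and last array of each slide and for the 2 steps across slides. FOXD3 has -1.66 from 3 to 12 h and 1.76 from 14 to 42 h, and DPPA2 and UTF1 have 0.95 and 0.70 from 48 to 72 h.

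Markers of other cell types were read beside the members. Of all genes tested 24.6% rose and 29.8% fell by the slope, which is the background for the counts in these lists. Of 7 neural crest and neural genes tested, SOX10, a neural crest factor, rose at signals of 58.8 to 162, PAX6 and NES fell, and the summed signal of the 10 genes with a probe had a median of 27584 in the first slide, 18580 in the second and 15127 in the third, most of it NES. HES5, a Notch target in neural progenitors, was highest at 3 h (3024) and lowest at 16 h (63.4). Of 13 mesoderm and endoderm genes tested 4 rose, the largest rises being those of HAND1 (slope 0.0461) and MESP1 (slope 0.0309), and their summed signal was 3737 at the lowest, at 8 h, and 9686 at the highest, at 60 h, a difference that lay in KDR, a VEGF receptor (1782 at 8 h and 7742 at 60 h). Of 6 trophoblast genes tested 2 rose (CGA, at 9.96 to 98.7, and KRT7) and 2 fell (CDX2 and TFAP2C). The fall of CDX2 (limma adjusted p = 0.047) was not steady, with its highest signal at 66 h (168) and its lowest at 72 h (11.8). Of 8 fibroblast genes, COL3A1, LUM and POSTN were well above background on at most 2 arrays, 1 of the 5 tested rose (COL1A2) and 1 fell (PDGFRB), and the summed signal had medians of 38033, 29133 and 29948 in the 3 slides. With the slide as a block, the calls in these 4 lists were lost (for HAND1 and MESP1, limma adjusted p = 0.152 and 0.0712). With the array median 3 mesoderm and endoderm genes fell, a count without background because the share of all genes called is not given there. The part of these cell types in the members' changes was not tested.

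Set against the core trio on the same array, the members again split. POU5F1 went from 349260 early to 279830 late and fell (slope -0.00661, limma adjusted p = 0.000259), and SOX2 and NANOG were not called by the slope (limma adjusted p = 0.517 and 0.253). The limma cubic test was called for NANOG (adjusted p = 0.000201). Its signal was 21910 at 54 h and 37026, 39129 and 36031 at 60, 66 and 72 h, which raised the trio mean on the arrays from 60 h. The part of NANOG in the slopes relative to the trio was not tested beyond the reference to POU5F1 alone. Relative to the mean log2 signal of the trio, ZFP42 (slope -0.00989, two-sided permutation test, adjusted p = 0.00012), LIN28B (-0.0104, adjusted p = 0.00012), L1TD1 (-0.00736, adjusted p = 0.00804) and PRDM14 (-0.00879, adjusted p = 0.0357) fell. FOXD3 (0.0283, adjusted p = 0.000912), DPPA2 (0.00787, adjusted p = 0.0006) and UTF1 (0.00603, adjusted p = 0.00588) rose relative to it. The values for DPPA4, LIN28A and SALL4 were 0.00197, -0.00290 and 6.5e-05 (adjusted p = 0.289, 0.156 and 0.962). These calls depended on the reference. Against POU5F1 alone, DPPA4 (0.00757, adjusted p = 0.00128) and SALL4 (0.00566, adjusted p = 0.00274) rose by the same permutation test, and L1TD1 (-0.00176, adjusted p = 0.466) and PRDM14 (-0.00319, adjusted p = 0.384) were not called. Over 3 to 54 h, DPPA4 rose relative to the trio (0.00771, adjusted p = 0.00216), and ZFP42, LIN28B and FOXD3 kept their calls. By the same permutation test over 3 to 54 h, UTF1 (adjusted p = 0.188), DPPA2 (0.0932), L1TD1 (0.0693) and PRDM14 (0.584) were not called. ZFP42 relative to the trio was below all 3 early values on 16 of 16 later arrays and L1TD1 on 15 of 16. Of these 12 differences, paralog pairs included, 9 passed over all arrays, and 1, UTF1, passed when permuted within slides (adjusted p = 0.0204). The share of all genes that pass such a test is not given, so these counts have no background.

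**Figure D4:**
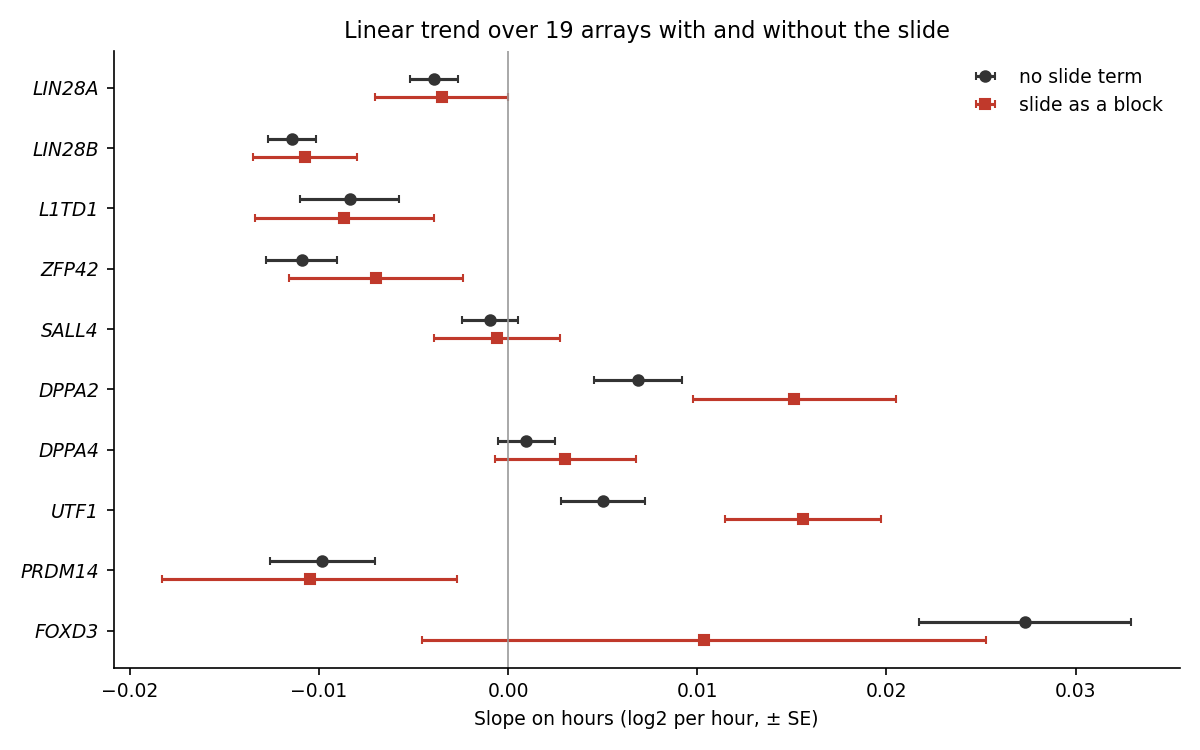
Slope of log2 signal on hours (points, with bars of 1 SE) for each factor over 19 arrays, without a slide term (circles) and with the slide as a block (squares). The slope of FOXD3 goes from 0.0273 to 0.0104 with the block and that of UTF1 from 0.00501 to 0.0156.

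With the slide as a block, 1 member rose (UTF1) and 1 fell (LIN28B), and 4.12% and 5.97% of all genes did. Within the first slide 1 member fell (FOXD3) and none rose, against 3.29% and 1.84% of genes, and 3 members had an unadjusted p under 0.05. Within the second slide no member passed limma's test (background 4.13% rising and 3.2% falling, 1 member at an unadjusted p under 0.05), and within the third none did (background 0.341% and 0.713%, 2 members at an unadjusted p under 0.05). Another scaling moved the median late minus early change of all genes from -0.05 with the 75th percentile to -0.42 if arrays were scaled on their median, and to -0.70 if scaled on the spike-in RNA. In the same order the late minus early changes of UTF1 were 0.32, -0.05 and -0.33 and those of DPPA2 0.49, 0.12 and -0.16. Their direction therefore depends on the scaling, whereas the changes of FOXD3 (1.1, 0.73 and 0.46) and ZFP42 (-0.84, -1.21 and -1.48) kept their sign. These scalings differ by a constant per array, so the changes move with the median of all genes. Under each scaling UTF1, DPPA2 and FOXD3 lay above that median and ZFP42 below it.

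Other genes known from hESCs were split as well. The background for the counts below is 24.6% of all genes rising and 29.8% falling, and 4.12% and 5.97% with the slide as a block. Of 24 hESC-associated genes tested 11 fell and 2 rose. The largest falls were those of TCF7L1, a repressor at the end of the WNT pathway (slope -0.0282, highest at 12 h with 8304 and lowest at 72 h with 1742), and LCK, a kinase (slope -0.0145), and TERT, the catalytic subunit of telomerase, rose (slope 0.0103) but was not called with arrays scaled on their median. With the slide as a block, TCF7L1, LCK, GDF3 and DNMT3B still fell. Of 14 genes linked to the naive state, 5 rose, led by KLF2 (slope 0.0357, 265 at 16 h to 2416 at 60 h) and SUSD2 (slope 0.0237, 714 at 3 h to 2536 at 72 h), and 3 fell, led by DPPA3 (slope -0.0263) and DPPA5 (slope -0.0164). Of 13 relatives of the members by name or sequence, DPPA3 and DPPA5 fell and SALL3, a paralog of SALL4, rose (slope 0.0129). With the slide as a block SUSD2 still rose (limma adjusted p = 0.0171), and the calls of KLF2, DPPA3, DPPA5 and SALL3 were lost (adjusted p = 0.181, 0.444, 0.328 and 0.588). Of 10 housekeeping genes 3 rose and 5 fell, with slopes from -0.0135 for HPRT1, a purine salvage enzyme (limma adjusted p = 1.56e-07), to 0.0145 for B2M, the light chain of HLA class I (limma adjusted p = 1.71e-06). Of the members called, FOXD3 alone had a slope outside that range.

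The profiles most like each member, by the RMS of mean-centred log2 signal over 19 arrays among 13969 genes well above background on all of them, are given as a description. For LIN28B they were DDX1 (0.059), HNRNPC (0.062) and CYB5R2 (0.066). For L1TD1 they were WDR74, B3GAT1 and EGLN2 (0.075 to 0.078), for ZFP42 CD83, QTRT2 and C15orf39 (0.092 to 0.10), for LIN28A WBP11, KLC1 and CUL3 (0.070 to 0.078), for SALL4 GPS1 and DCAF11 (0.075 and 0.077), and for UTF1 LZIC and GTF2H5 (0.099 and 0.10). For DPPA2 they were NPDC1, HMGXB3 and ZDHHC11 (0.093 to 0.11), and for PRDM14 ZNF480, ATMIN and ZNF470 (0.14 to 0.15). No profile came close to that of FOXD3: the nearest, SLC2A4, was at 0.40, against 0.79 for FOXD3 about its own mean, and KDR was at 0.42. The likeness of a profile says nothing of a shared function, and all these values share the same 19 arrays.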

How the data were processed

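KhES-3 cells were profiled once per time point on SurePrint G3 Human 8 x 60 K v2 arrays. The authors deposited, for each array, the Agilent Feature Extraction 10.10.1.1 output, whose processed intensity is background-subtracted and not scaled between arrays, with flags per spot (other values, 0 or 1, as deposited), and a table of the same intensities times 1 factor per array (0.905 to 1.38). Outlier-flagged spots (0.632%) were left out, spots of a probe averaged, and log2 intensity was centred on each array's 75th percentile. Genes were named through RefSeq accessions (GRCh38.p14), 28174 probes for 20503 genes, with the brightest probe standing for a gene.

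Slopes on hours and cubic curves were fitted over 32113 probes well above background on at least 5 of 19 arrays (limma 3.58.1, R 4.3.3, Benjamini-Hochberg, threshold 0.05), and within-array differences were tested by permutation in Python 3.11.15 (numpy 2.4.6, pandas 2.3.3, scipy 1.17.1). On simulated data with 200 changed probes of 32113, the slope recovered 156 among 164 calls (8 false) and the cubic test 173 among 182 (9 false). The simulated noise was independent between arrays and held no slide effect. These counts therefore do not cover errors that the arrays of a slide or neighbouring time points share. The genes named are the 10 members, the core trio, the 2 largest rises and falls called per list and the 3 nearest profiles of each called member, Y-linked genes left out and a few genes not reported here; IGF2BP1, AGO2, GDF3, DNMT3B, HES5, KDR, HPRT1, B2M and the marker genes at background were named after their values were seen. Members and lists were chosen with earlier results of these data known. Alternatives were the array median, spike-in RNA, normexp with quantile normalization (offset 50), the deposited table, other filters on background, all probes of a gene, log2 hours, a quadratic curve, fewer late arrays, the slide as a block and each array left out. The number of arrays limits the precision.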

Additional observations from a re-analysis of the deposited data

How the results depend on the processing

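The members that rose by the slope numbered 2, and 1 with the array median, the spike-in RNA, the deposited table, the slide as a block, log2 hours, or only the arrays up to 54 h or up to 60 h, 4 with normexp, 0 with the block and the array median, and 0, 0 and 0 within the slides. Those that fell numbered 5, and 1 with the slide as a block (with either scaling), 3 over 3 to 54 h or 3 to 60 h, 1, 0 and 0 within the slides, 6 with the array median or the spike-in RNA (SALL4 gained), and 4 with normexp (LIN28A lost) or log2 hours (PRDM14 lost, adjusted p = 0.0742). The median slope of all genes tested was -0.000198, but -0.00546 after median scaling and -0.00866 after spike-in scaling. Member counts under those scalings therefore include a downward shift of all genes, the gain of SALL4 among them. The cubic test gave 9, and 4 with the block (DPPA2, FOXD3, LIN28B and UTF1). The share of all genes called is given above for the slope and the cubic test over all arrays, and for the slope with the block and within slides. It is not given for the array median, the spike-in RNA, normexp, the deposited table, log2 hours or fewer late arrays. Nor is it given for the block with the array median, the cubic test with the block, or the fits with an array left out. Member counts under those settings therefore have no background. Within-array differences with a slope numbered 9, and 5 over 3 to 54 h and 1 permuted within slides. Leaving out each array in turn gave 1 to 3 rising, 4 to 5 falling, 8 to 10 by the cubic test and 6 to 9 within-array differences. The fits within slides, the block with the array median, the arrays from 3 to 60 h and the window from 48 to 60 h were chosen after the data had been seen. No paired analysis was possible because no time point has a replicate to pair.

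These slopes (log2 per hour) changed sign. With the array median and the spike-in RNA, the shift of all genes given above enters every slope. The cause of the other sign changes was not tested. DPPA4 was -0.00431 with the array median, -0.00751 with the spike-in RNA, -2.7e-05 with the deposited table, -0.00102 with the block and the array median, -0.0110 within the first slide and -0.0101 within the third. DPPA2 was -0.00161 with the spike-in RNA, -0.00130 over 3 to 54 h and -0.00483 within the first slide. UTF1 was -0.000248 with the array median, -0.00345 with the spike-in RNA, -0.00199 over 3 to 54 h and -0.00770 within the first slide. SALL4 was 0.00234 with normexp and 0.00329 within the second slide, LIN28A 0.000255 within the second, PRDM14 0.0394 within the first, and FOXD3 -0.181 within the first and -0.00134 within the third. Late minus early changes that changed sign were those of DPPA2 with the spike-in RNA (-0.16), DPPA4 with normexp (0.12) and the window from 48 to 60 h (0.057), SALL4 with normexp (0.016), and UTF1 with the array median (-0.054), the spike-in RNA (-0.33) and the window from 48 to 60 h (-0.049). Differences that changed sign were DPPA2 minus DPPA4 over 3 to 54 h (-0.00345), LIN28A relative to the trio over 3 to 54 h (0.00327) and relative to POU5F1 alone (0.00270), PRDM14 relative to the trio over 3 to 54 h (0.00216), and SALL4 relative to it, from -0.000414 to 0.000778 on leaving out 1 array. The fall of PRDM14 relative to the trio was lost without the array at 6, 10, 60, 66 or 72 h (adjusted p up to 0.168), and the rise of UTF1 without that at 72 h (adjusted p = 0.0727).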
